A study of Mus musculus with 24 samples.

Results

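The 10 genes described here are Atf4, which encodes the transcription factor of the amino acid stress response, and genes that answer to it: Asns, Ddit3, Trib3, Chac1, Psat1, Phgdh, Sesn2, Slc7a11 and Mthfd2. The rule that picks them is their symbols and holds no measured value, though the list was drawn up with earlier results of these data known. All 10 were found among the 16118 genes of the table, and all 10 were among the 16005 genes that passed the filter on low read numbers. Messenger RNA was sequenced from the inguinal white adipose tissue, a subcutaneous fat pad, of 24 mice in 6 groups of 4. Males and females were taken at postnatal day 21 (p21) or at day 28. The day 28 animals had standard weaning (p28 SW, separated from the mother at p21) or delayed weaning (p28 DW, kept with the mother). The p21 animals also carry the SW label, and both p28 groups of a sex are set against them. The labels give no strain, litter or diet, and each library carries the number of its own animal, so the p-values measure the spread between these animals. The title of the series places the work in the study of adipose remodelling under prolonged breastfeeding and its difference between the sexes.

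When a cell is short of an amino acid, uncharged transfer RNA activates the kinase GCN2 (Eif2ak4), which phosphorylates the initiation factor eIF2; PERK (Eif2ak3), PKR (Eif2ak2) and HRI (Eif2ak1) phosphorylate the same factor under other stresses. Most translation then slows while the Atf4 message is translated more, so the amount of ATF4 protein is not read from its messenger RNA alone. ATF4 binds DNA with a C/EBP partner at composite sites and raises genes for amino acid synthesis and uptake, transfer RNA charging, one-carbon metabolism and redox balance, and, under lasting stress, for the factor CHOP (Ddit3) and the pseudokinase TRIB3. In adipose tissue the pathway is known for its response to protein-poor diets and to mitochondrial stress.

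The composite site was looked for in the promoters of the genes, because it is the sequence through which the pathway is known to act on them. RefSeq promoter windows (GRCm38.p6, 250 bases before to 50 after each annotated start) were matched by symbol for all 10 genes, in 11 windows because Psat1 has a pair. The letters TGATGNAA, read on both strands, were present for 4 of the 10 genes (Asns, Trib3, Chac1 and Slc7a11), against 3.97% of 32851 promoter windows. The cyclic AMP response element TGACGTCA was in none of the 11 windows and in 1.79% of all of them. The Trib3 match lay after the annotated start. The 3 stretches below are the matches before the start, 5′ to 3′ on the gene's strand, with the match in capitals.
Asns, chr6:7693210-7693258, minus strand: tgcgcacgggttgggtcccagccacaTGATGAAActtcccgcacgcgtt
Chac1, chr2:119351023-119351082, plus strand: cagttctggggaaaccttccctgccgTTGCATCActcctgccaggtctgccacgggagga
Slc7a11, chr3:50443627-50443705, minus strand: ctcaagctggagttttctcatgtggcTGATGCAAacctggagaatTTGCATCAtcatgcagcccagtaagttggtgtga
The first base of the match lay 23 bases before the Asns start and 193 before the Chac1 start. Slc7a11, the cystine transporter, had a pair of matches on opposite strands, 66 and 47 bases before its start. A match is a description of the letters and not evidence of binding.

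The values are read numbers divided by a factor for each library, here called normalised reads. The libraries held 57600711 to 302145813 reads (median 115359238). The shallowest, p21 male 53, had reads for 14054 genes against 15497 or more in the others, and it gave 1 read of Chac1. The score of 8 adipocyte markers, the mean log2(value + 1) of the list, was 9.35 to 10.2 in the 24 libraries, and Adipoq, the adiponectin gene, ranged from 787 to 1527 normalised reads, so the labelled tissue was matched by its markers. Markers of other tissues were present unevenly: the score of 8 skeletal muscle markers ran from 0.55 to 9.43 over the libraries, and that of 9 mammary epithelial markers was 0.17 to 2.27 in males and 2.00 to 4.95 in females.

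The 10 genes spanned nearly 2 orders of magnitude in level. Per kilobase of exon, Asns, the asparagine synthetase, averaged 31.1 normalised reads over the 24 libraries and Atf4 27.4. The serine synthesis enzymes Phgdh and Psat1 averaged 21.9 and 20.0. Group means of these 4 genes overlapped (Asns 23.2 to 44.8, Atf4 20.3 to 35.3, Phgdh 13.7 to 32.0, Psat1 17.7 to 22.2), so their order was not fixed across groups. Next came Sesn2 at 4.41, Ddit3 at 3.97 and Mthfd2 at 2.94 per kilobase, with group means that also overlapped. Trib3 averaged 1.27, Slc7a11 0.464 and Chac1 0.410 per kilobase, and the last pair changed places between groups.

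**Figure D1:**
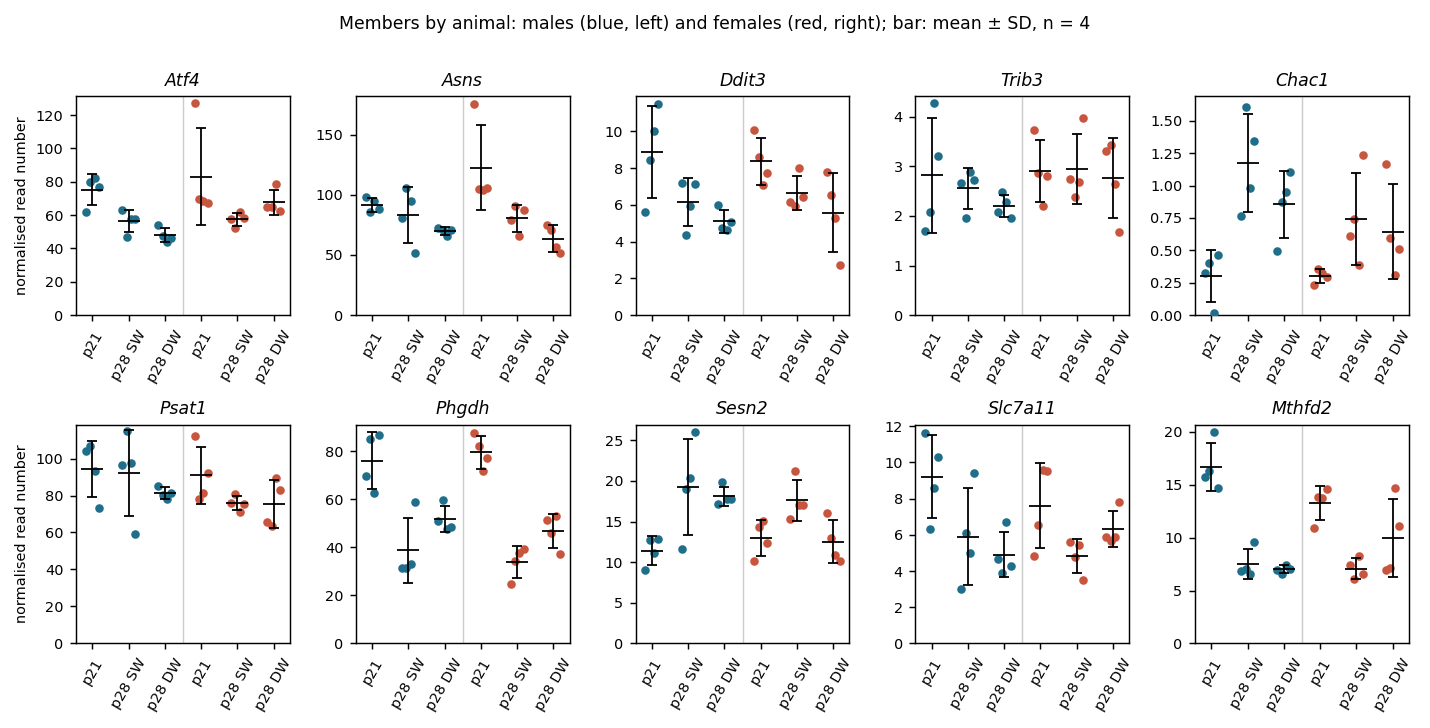
Normalised reads (y axis) of the 10 genes in each of the 24 animals, one point per animal, with the mean and SD of each group of 4 (males blue, left of the grey line; females red, right). The group means of Phgdh and Mthfd2 are highest at p21 in both sexes, though DW female 82 has Mthfd2 at 14.7, above every p21 female. The group mean of Chac1 is lowest at p21, where its values run from 0.0154 to 0.465 normalised reads.

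From day 21 to day 28 more of the 10 genes were called lower than higher in 3 of the 4 age comparisons, and in males after standard weaning the numbers were equal. Changes are given as differences of log2(normalised reads + 1), a scale that understates the change of low genes such as Chac1, and a gene was called when limma's adjusted p over all genes was under 0.05. In males after standard weaning 2 genes rose (Chac1 and Sesn2; 6.9% of all genes were called higher) and 2 fell (Phgdh and Mthfd2; 4.97% lower). In males kept with the mother 2 rose (Chac1 and Sesn2; 8.86% of all genes) and 5 fell (Atf4, Ddit3, Phgdh, Slc7a11 and Mthfd2; 6.1%). In females after standard weaning none rose (7.39% of all genes) and 4 fell (Atf4, Asns, Phgdh and Mthfd2; 4.23%). In females kept with the mother none rose (5.95%) and 2 fell (Asns and Phgdh; 6.16%). Both p28 groups of a sex were set against the same p21 animals, so the pair of comparisons in each sex is not independent.

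The median log2 change of the 10 genes was -0.30 in males after standard weaning, -0.46 in males kept with the mother, -0.38 in females after standard weaning and -0.26 in females kept with the mother. The medians over all genes tested were 0.01, 0.02, 0.01 and 0.00. Values of the p28 and p21 animals did not overlap for 3 of the 10 genes in males after standard weaning (16.2% of all genes) and for 6 in males kept with the mother (23.1%). In females they did not overlap for 6 genes after standard weaning (21.5%) and for 2 with the mother (15.1%). These are bulk samples, in which fewer cells of a type and less RNA per cell cannot be told apart.

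**Figure D2:**
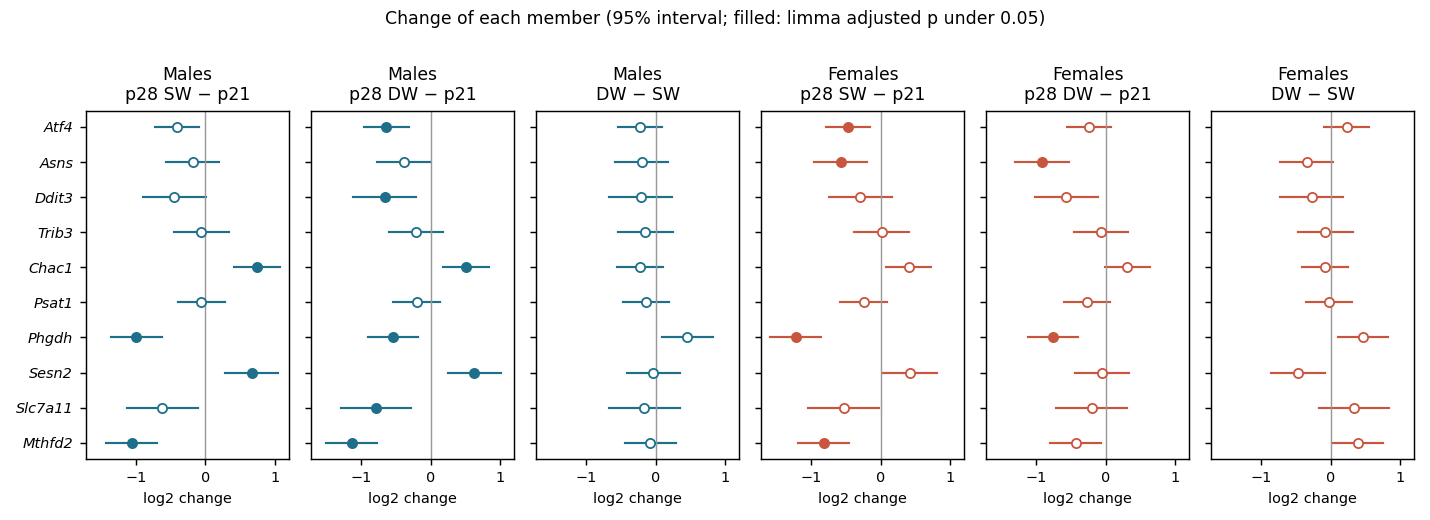
Log2 change (x axis) of each gene with its 95% interval for the 4 age comparisons and the DW minus SW comparison in each sex; filled points have a limma adjusted p under 0.05. Phgdh is filled in all 4 age comparisons and no gene is filled in DW minus SW.

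Atf4 (ENSMUSG00000042406, chromosome 15) encodes the factor at the centre of the pathway. In males its normalised reads at p21 were 61.9, 79.6, 82.4 and 77.0, and after standard weaning they were 63.02, 46.8, 57.8 and 57.9. With the mother they were 54.0, 47.5, 44.0 and 46.3. All 4 DW males lay below all p21 males, while 1 SW male lay above the lowest p21 male. The change was -0.63 ± 0.15 (SE) with the mother (limma adjusted p = 0.00896) and -0.41 ± 0.15 after standard weaning (limma adjusted p = 0.0858; adjusted p = 0.0138 when p21 female 30 is left out of the shared fit). In females the p21 values were 127, 69.5, 68.5 and 67.4, the SW values 57.4, 52.3, 61.8 and 58.5, and the DW values 64.7, 65.02, 78.8 and 62.2. The SW females lay below every p21 female, and p21 female 30 stood at 127 against 67.4 to 69.5 for the other 3. The female change after standard weaning was -0.47 ± 0.15 (limma adjusted p = 0.0497). Without female 30 it was -0.25 (limma adjusted p = 0.194). The call was lost in 16 of 24 fits that each left out 1 animal: without female 30, each SW female, each DW male, p21 males 38 and 54, SW males 78, 85 and 124, or DW females 76 and 77. Over the 24 fits the change ran from -0.55 to -0.25. In DW females the log2 change of Atf4 was -0.24 ± 0.15 (limma adjusted p = 0.320).

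Ddit3 (ENSMUSG00000025408, chromosome 10) encodes CHOP, a C/EBP-family factor that ATF4 induces and that is known for its part in stress-induced cell death. Its values in p21 males were 5.62, 8.45, 10.0 and 11.5, and in DW males 6.00, 4.74, 4.65 and 5.05. The groups overlapped through p21 male 37 at 5.62. The change was -0.66 ± 0.22 (limma adjusted p = 0.0450). Over 24 fits that each left out 1 animal it ran from -0.84 to -0.54, with an adjusted p of up to 0.127. The call was lost in 14 of them: without p21 males 38, 53 or 54, each DW male, p21 females 36, 55 or 56, SW male 85, or SW females 73, 74 or 81. In DW females the log2 change of Ddit3 was -0.57 ± 0.22 (limma adjusted p = 0.0926; -0.73, adjusted p = 0.0256 without DW female 76), with values of 7.81, 6.52, 5.28 and 2.74 against 7.08 to 10.1 at p21. Ddit3 overlaps Mars1 on the other strand, and since the strand setting of the counting is not given in the sources used here, reads of that overlap cannot be assigned to either gene.

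Trib3 (ENSMUSG00000032715, chromosome 2) encodes the pseudokinase that feeds back on ATF4 and on Akt signalling. It passed the test in none of the 4 age comparisons, where its log2 changes ran from -0.21 to 0.01. Its spread was widest in p21 males, with 1.70, 2.08, 4.28 and 3.21 normalised reads. The 95% interval of its change in males after standard weaning was -0.45 to 0.33, which leaves room for a moderate change in either direction.

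Asns (ENSMUSG00000029752, chromosome 6) makes asparagine from aspartate and glutamine and is one of the classical ATF4 targets. In females its values were 176, 105, 104 and 106 at p21, 78.6, 90.5, 65.3 and 87.6 after standard weaning and 74.8, 70.9, 56.7 and 51.5 with the mother. Every p28 female lay below every p21 female, and female 30 was again the highest. Asns fell by 0.92 ± 0.18 with the mother (limma adjusted p = 0.00257; -0.73, adjusted p = 0.0124 without female 30). After standard weaning it fell by 0.57 ± 0.18 (limma adjusted p = 0.0459; -0.39, adjusted p = 0.191 without female 30). That call was lost in 14 of 24 fits with 1 animal left out: without p21 females 30 or 56, each SW female, each DW male, p21 males 37, 38 or 54, or SW male 78. In males the p21 range was 85.4 to 98.0, the SW range 51.5 to 106 and the DW range 65.7 to 72.6. The DW males lay below all p21 males, but the change of -0.38 ± 0.18 did not pass the test (limma adjusted p = 0.164).

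Phgdh (ENSMUSG00000053398, chromosome 3) encodes the first enzyme of serine synthesis from glycolysis, and it was the one gene of the 10 called in all 4 age comparisons. In males its normalised reads were 69.8, 85.0, 62.5 and 86.9 at p21, 31.6, 31.6, 33.0 and 58.8 after standard weaning, and 51.0, 59.8, 47.8 and 48.6 with the mother. In females they were 87.8, 82.1, 71.7 and 77.2 at p21, 24.7, 34.2, 37.5 and 39.3 after standard weaning, and 51.2, 46.2, 53.1 and 37.3 with the mother. No p28 animal reached the lowest p21 animal of its sex. Phgdh fell after standard weaning by 0.99 ± 0.17 in males and by 1.22 ± 0.17 in females (limma adjusted p = 0.000981 and 5.83e-05). With the mother it fell by 0.54 ± 0.17 in males and by 0.76 ± 0.17 in females (limma adjusted p = 0.0416 and 0.00649). Among fits that each left out 1 animal, 3 of these 4 calls were kept in all 24. The DW male call was lost in 5, without p21 males 38 or 54 or DW males 79, 86 or 87, and over the 24 fits it ran from -0.63 to -0.47 with an adjusted p of up to 0.107.

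Psat1 (ENSMUSG00000024640, chromosome 19) encodes the next enzyme of the same route, and did not pass the test in any age comparison. Its log2 changes ran from -0.27 to -0.06, and its group means lay between 75.4 ± 12.9 (SD, n = 4, DW females) and 94.4 ± 15.3 (p21 males). The 95% interval of its change in females after standard weaning was -0.58 to 0.09, while that of Phgdh in the same animals was -1.59 to -0.86. In males after standard weaning the intervals were -0.40 to 0.28 for Psat1 and -1.36 to -0.63 for Phgdh. After standard weaning the intervals of these neighbouring steps of a single pathway did not overlap. With the mother they did, at -0.53 to 0.14 and -0.90 to -0.18 in males and -0.61 to 0.07 and -1.12 to -0.40 in females. The difference between the genes was not itself tested.

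Mthfd2 (ENSMUSG00000005667, chromosome 6) encodes the mitochondrial folate enzyme that passes on the one-carbon unit taken from serine. In males its values were 15.7, 16.3, 20.0 and 14.7 at p21, 6.82, 7.00, 6.60 and 9.59 after standard weaning, and 6.97, 6.52, 7.46 and 7.07 with the mother. All 8 p28 males lay below all 4 p21 males. It fell by 1.06 ± 0.18 after standard weaning (limma adjusted p = 0.000578) and by 1.14 ± 0.18 with the mother (limma adjusted p = 0.000386), on this scale a 2.09-fold and a 2.20-fold lower level. In females the values were 10.9, 13.8, 13.7 and 14.6 at p21, and 7.43, 6.07, 8.24 and 6.57 after standard weaning. All SW females lay below all p21 females, and Mthfd2 fell by 0.82 ± 0.18 (limma adjusted p = 0.00311).

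Females kept with the mother were split for Mthfd2, at 6.96 and 7.08 in animals 76 and 77 and 14.7 and 11.1 in animals 82 and 83. The change was -0.43 ± 0.18 (limma adjusted p = 0.112). In a fit without animals 82 and 83, chosen after their values were seen, it was -0.82 (limma adjusted p = 0.00241), and without animal 82 alone -0.62 (adjusted p = 0.0178). Animals 82 and 83 stood apart from 76 and 77 across the transcriptome: the chi-square per degree of freedom between their read numbers was 612 to 814, against at most 375 for any other pair within a group. They had the lower Sesn2 values of their group (10.9 and 10.2 against 16.1 and 13.0). Their scores were lower for adipocyte (9.57 and 9.39 against 10.04 and 9.99), macrophage (5.50 and 5.45 against 6.05 and 6.17) and mammary markers (3.23 and 3.32 against 4.19 and 4.19), and higher for proliferation (5.05 and 4.76 against 4.29 and 4.48). With the proliferation score as a covariate the change of Mthfd2 was -0.76 in DW females (limma adjusted p = 0.00778) and -0.47 in SW females (adjusted p = 0.0892, a call lost). The score of SW females did not overlap that of p21 females, so the fit could hardly tell score from group there. The same fit gave -0.65 for Asns in DW females (limma adjusted p = 0.0526, a call lost). The part of these scores in the results was not tested beyond that fit and the one with tissue scores.

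Chac1 (ENSMUSG00000027313, chromosome 2) encodes an enzyme that degrades glutathione, and it rose in both male comparisons. In males its normalised reads were 0.323, 0.402, 0.0154 and 0.465 at p21, 0.765, 1.61, 0.980 and 1.35 after standard weaning, and 0.493, 0.870, 0.953 and 1.104 with the mother. Every p28 male lay above every p21 male. Chac1 rose by 0.74 ± 0.16 after standard weaning (limma adjusted p = 0.00463) and by 0.51 ± 0.16 with the mother (limma adjusted p = 0.0336). On recovered reads, where no 1 is added, edgeR gave 1.91 (adjusted p = 0.0237) and 1.45 (adjusted p = 0.0682). Without the shallow p21 male 53 the limma changes were 0.62 (adjusted p = 0.0191) and 0.40 (adjusted p = 0.129). The second call was also lost without DW males 80, 86 or 87. Females gave 0.232 to 0.357 at p21, 0.388 to 1.23 after standard weaning and 0.308 to 1.16 with the mother. Their log2 changes were 0.40 ± 0.16 (limma adjusted p = 0.115) and 0.31 ± 0.16 (limma adjusted p = 0.208).

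Sesn2 (ENSMUSG00000028893, chromosome 4) encodes sestrin 2, a leucine sensor that restrains mTORC1. In males its values were 9.02, 12.7, 11.1 and 12.9 at p21, 11.6, 19.1, 20.3 and 26.1 after standard weaning, and 17.1, 19.8, 17.8 and 17.8 with the mother. The DW males lay above all p21 males, and SW male 78 was the one p28 male within the p21 range. Sesn2 rose by 0.67 ± 0.19 after standard weaning (limma adjusted p = 0.0225) and by 0.63 ± 0.19 with the mother (limma adjusted p = 0.0257). Over 24 fits that each left out 1 animal, the first ran from 0.51 to 0.88 and was lost without p21 male 37 or SW males 84, 85 or 124 (adjusted p up to 0.0840). The second ran from 0.53 to 0.69 and was lost without p21 males 37 or 53 or DW males 80, 86 or 87 (adjusted p up to 0.0678). In females the change was 0.42 ± 0.19 after standard weaning (limma adjusted p = 0.163), with values of 15.3 to 21.2 against 10.1 to 15.1 at p21, and -0.05 ± 0.19 with the mother (limma adjusted p = 0.895).

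Slc7a11 (ENSMUSG00000027737, chromosome 3) encodes the cystine and glutamate exchanger, which NRF2 also induces. In males its values were 11.6, 6.33, 8.57 and 10.3 at p21 and 4.68, 3.91, 6.71 and 4.29 with the mother. The highest DW male, at 6.71, lay above the lowest p21 male. The change was -0.79 ± 0.25 (limma adjusted p = 0.0349), and ran from -0.93 to -0.67 over 24 fits that each left out 1 animal. The call was lost without p21 males 37, 53 or 54 or DW males 79, 80 or 87 (adjusted p up to 0.0959). After standard weaning the male values were 3.02, 6.12, 4.99 and 9.43, and the change of -0.62 ± 0.25 did not pass the test (limma adjusted p = 0.101; -0.85, adjusted p = 0.0272 without SW male 124, the highest). In females the changes were -0.53 ± 0.25 after standard weaning (limma adjusted p = 0.184) and -0.20 ± 0.25 with the mother (limma adjusted p = 0.639).

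**Figure D3:**
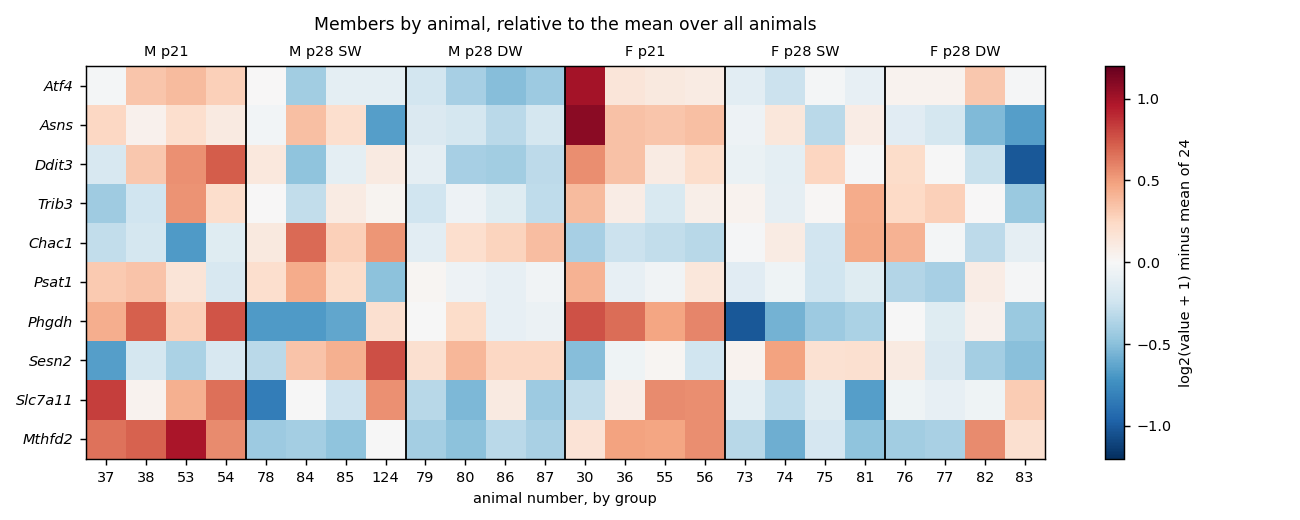
Each gene (rows) in each animal (columns, by group and animal number) as log2(value + 1) minus its mean over the 24 animals; red is higher and blue lower. Phgdh and Mthfd2 are red in the p21 columns of both sexes, Atf4 and Asns are darkest in p21 female 30, and Mthfd2 is red in DW females 82 and 83.

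Delayed against standard weaning at day 28 asks whether the mother's presence changed these genes at the same age. None of the 10 was called in males (0.256% of all genes were) or in females (1.27%), by limma or by edgeR. At an unadjusted p under 0.05 limma had 1 of the 10 in males (6.94% of all genes) and 3 in females (18.9%). For edgeR the numbers were the same (6.62% and 16.7% of all genes). Phgdh was 0.46 ± 0.17 higher with the mother in males (95% interval 0.09 to 0.82; limma adjusted p = 0.533) and 0.46 ± 0.17 higher in females (0.10 to 0.83; limma adjusted p = 0.193). In males 3 of the 4 SW animals were at 31.6 to 33.0 against 47.8 to 59.8 in the DW animals, and SW male 124 stood at 58.8. Without male 124 the difference was 0.67 (limma adjusted p = 0.0689). In females the DW animals were at 37.3 to 53.1 and the SW animals at 24.7 to 39.3. Animals of 1 group with neighbouring numbers were often more alike: in DW males the chi-square per degree of freedom was 80.7 for animals 79 and 80 and 92.4 for 86 and 87, and 170 to 257 for the other pairs. Within the run of animal numbers 73 to 80 Phgdh was 0.79 higher with the mother in males (2 DW animals against 1 SW) and 0.60 in females (2 against 3). Within 81 to 87 it was 0.56 higher in males (2 against 2) and 0.18 in females (2 against 1). With the run as a covariate the differences were 0.67 and 0.47 (limma adjusted p = 0.0948 and 0.137), and none of the 10 genes was called in either sex. Male 124 was alone in his run, so that fit takes him out of the male difference, as leaving him out does. What the runs stand for is not given in the labels.

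The other genes with an unadjusted p under 0.05 were seen in females. Sesn2 was 0.47 ± 0.19 lower with the mother (95% interval -0.85 to -0.09; limma adjusted p = 0.206), and -0.59, adjusted p = 0.0489 without DW female 76. DW females 82 and 83 were lowest, at 10.9 and 10.2, against 16.1 and 13.0 in 76 and 77 and 15.3 to 21.2 in SW females. The Sesn2 difference was -0.27 within animal numbers 73 to 80 and -0.65 within 81 to 87. Mthfd2 was 0.39 ± 0.18 higher (0.02 to 0.75; limma adjusted p = 0.246), through animals 82 and 83. For Atf4 the DW females, at 62.2 to 78.8, all lay above the SW females, at 52.3 to 61.8, with a difference of 0.23 ± 0.15 (limma adjusted p = 0.406). The proliferation score was 0.66 higher with the mother in males and 0.68 higher in females, and the mammary score of females 0.99 lower, each with no overlap of groups (exact permutation test, two-sided, p = 0.0286 and adjusted p = 0.114 for each). With the proliferation score as a covariate none of the 10 was called, and Mthfd2 was 0.29 lower with the mother in females and 0.74 lower in males (limma adjusted p = 1.00 and 0.191). Since the score did not overlap between the weaning groups of either sex, that fit could hardly tell the score from weaning. The median difference over the 10 genes was -0.16 in males and -0.05 in females, against 0.00 and -0.02 over all genes.

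Between the sexes none of the 10 genes was called by limma or edgeR at p21 (0.356% of all genes were called by limma), after standard weaning (3.54%) or with the mother (2.46%). At an unadjusted p under 0.05 limma had 0, 0 and 3 genes and edgeR 1, 0 and 3. The 3 were in animals kept with the mother. How many of all genes reached that threshold between the sexes was not counted, so these counts have no background beside them. Atf4 was 0.49 ± 0.15 higher in females (limma adjusted p = 0.0966), with no overlap between 62.2 to 78.8 in females and 44.0 to 54.0 in males. DESeq2 called it (0.51, adjusted p = 0.0445), as did limma without p21 female 30 (0.49, adjusted p = 0.0102). Sesn2 was 0.52 ± 0.19 lower in females (limma adjusted p = 0.141; -0.63, adjusted p = 0.0396 without DW female 76), and its ranges of 10.2 to 16.1 and 17.1 to 19.8 did not overlap. Mthfd2 was 0.40 ± 0.18 higher in females (limma adjusted p = 0.221). DW females 82 and 83 had the highest Mthfd2 values of their group (14.7 and 11.1) and the lowest Sesn2 values (10.9 and 10.2).

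Whether a change differed between the sexes was tested with the interaction terms. None of the 10 was called for the weaning difference (0.0187% of all genes were), for the change to standard weaning (1.03%) or for the change with the mother (0.0687%), by limma or by edgeR. At an unadjusted p under 0.05 limma had 1, 0 and 2 genes and edgeR 2, 0 and 2. How many of all genes reached that threshold was not counted for these terms. With the mother, the age change of Mthfd2 was 0.71 ± 0.25 higher in females than in males (limma adjusted p = 0.191) and that of Sesn2 was 0.68 ± 0.26 lower (limma adjusted p = 0.214). DW females 82 and 83 had the highest Mthfd2 and the lowest Sesn2 values of their group. The Chac1 and Sesn2 rises that passed in males alone were thus not shown to differ from the female changes.

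The wider pathway was read from 9 lists of 100 genes. Over all genes, 6.9%, 7.39%, 8.86% and 5.95% were called higher and 4.97%, 4.23%, 6.1% and 6.16% lower in SW males, SW females, DW males and DW females, so 1 call in a list of 8 to 14 genes lies near the share of all genes. Transfer RNA synthetases, which load amino acids onto transfer RNA and are known ATF4 targets, held the most genes called lower in females; in males the serine and one-carbon enzymes held as many or more. Of 13, none was higher in any age comparison; 4 were lower in males and 6 in females after standard weaning, and 3 and 8 with the mother (5 and 8 without DW females 82 and 83). Over 24 fits that each left out 1 animal these counts ran from 2 to 6, 3 to 6, 3 to 5 and 7 to 9. Their median log2 changes were -0.29, -0.32, -0.24 and -0.48, against 0.01, 0.01, 0.02 and 0.00 for all genes. Iars, which charges isoleucine, went from 73.0 ± 8.09 (SD, n = 4) at p21 to 50.9 ± 5.20 after standard weaning and 53.5 ± 2.72 with the mother in males. In females it went from 76.7 ± 4.28 to 53.0 ± 3.49 and 52.7 ± 2.66. Over the 9 lists 6 genes were called lower in all 4 age comparisons (Shmt1, Slc7a5, Txnrd1 and the synthetases Gars, Iars and Yars) and 1 was called higher in all 4 (Hmox1). Of these, Gars, Slc7a5 and Hmox1 each lost a call in DW females in 1, 4 and 2 of the 24 fits, and Gars also in SW males and SW females in 2 fits each. The share of all genes called in all 4 comparisons was not counted, so these numbers have no background beside them. Comparisons of a sex share p21 animals, so the shares of single comparisons do not give it.

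Enzymes of serine, glycine and one-carbon metabolism other than the 10 genes were counted next. Of 11, 1 was higher and 4 lower in males after standard weaning, 1 and 4 with the mother, 0 and 3 in females after standard weaning, and 0 and 2 with the mother. Shmt1, the cytosolic enzyme that splits serine into glycine and a one-carbon unit, fell in each comparison, by 0.66 to 0.98 (largest limma adjusted p = 0.00536). Mthfd1, the cytosolic folate enzyme, fell by 0.65 in females after standard weaning and by 0.64 with the mother (limma adjusted p = 0.0004 and 0.00083). It was also called in SW males, with overlapping groups (-0.44, limma adjusted p = 0.0129). Gldc, of the glycine cleavage system, rose in males from 0.492 ± 0.0915 at p21 to 1.70 ± 0.108 after standard weaning (0.86 ± 0.13, limma adjusted p = 0.000208). With the mother it rose in males to 1.37 ± 0.300 (0.66 ± 0.13, limma adjusted p = 0.0020). Psph, which completes serine synthesis after Psat1, fell by 0.58 ± 0.17 in DW males (limma adjusted p = 0.0222; lost without p21 male 53 or DW males 79 or 87, adjusted p up to 0.0916) and had a log2 change of 0.47 ± 0.17 in SW females (limma adjusted p = 0.0682). Shmt2, the mitochondrial partner of Mthfd2, did not pass the test in any of the 4.

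Amino acid transporters gave no gene called higher among 10. In males 3 fell after standard weaning and 3 with the mother; in females 2 and 1 fell (0 with the mother without DW females 82 and 83). Slc7a5, the large neutral amino acid carrier, fell in each comparison, in males from 9.42 ± 0.850 at p21 to 5.17 ± 0.814 after standard weaning (-0.76 ± 0.13, limma adjusted p = 0.000709). Slc1a4, a carrier of alanine, serine and cysteine, fell in males by 1.01 ± 0.17 after standard weaning and by 0.87 ± 0.17 with the mother (limma adjusted p = 0.00055 and 0.00199).

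**Figure D4:**
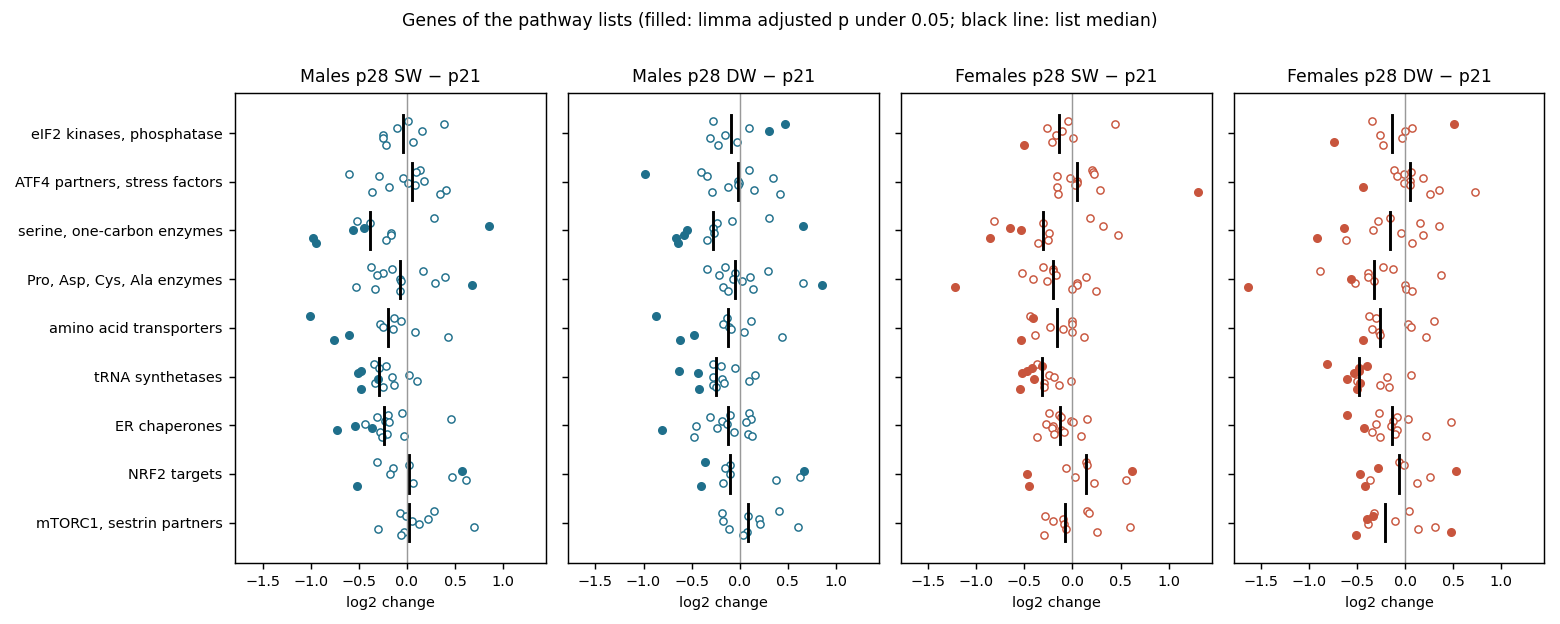
Log2 change (x axis) of each gene of the 9 pathway lists in the 4 age comparisons; filled points have a limma adjusted p under 0.05 and the black line is the median of the list. The synthetase medians lie left of 0 in all 4 panels, from -0.24 to -0.48.

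Upstream of ATF4, the eIF2 kinases showed few calls. Among 8 kinase, phosphatase and eIF2 genes none was called in males after standard weaning; 1 fell in females after standard weaning, 2 rose in males kept with the mother, and 1 rose and 1 fell in females kept with the mother. The fall in SW females was lost in 16 of 24 fits with 1 animal left out, p21 female 30 among them, and both DW male rises were lost without the shallow p21 male 53. Without DW females 82 and 83 the DW female count was 0 higher and 2 lower. Eif2ak4, the kinase that senses amino acid shortage, went from 16.4 ± 1.84 to 20.5 ± 0.954 in DW males (0.31 ± 0.10, limma adjusted p = 0.0435; lost in 12 of the 24 fits, adjusted p up to 0.138) and was at 18.1 ± 2.08 and 18.0 ± 0.846 in p21 and DW females. Ppp1r15a, the phosphatase subunit that ends the response, fell in DW females from 17.4 ± 1.88 to 10.5 ± 3.83 (-0.74 ± 0.19, limma adjusted p = 0.0134; 0.0610 without DW female 83).

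ATF4's partners and other stress factors, 12 genes, had 1 rise (Stc2 in SW females) and 1 fall each in DW males and DW females. The DW female count was 0 higher and 0 lower without p21 female 30, and 2 higher and 0 lower without DW females 82 and 83. Cebpb, a C/EBP partner, fell in DW males from 11.1 ± 3.17 to 5.14 ± 1.61 (-0.99 ± 0.27, limma adjusted p = 0.0169; lost without p21 male 38 or DW male 87, adjusted p up to 0.0745). Stc2, a secreted glycoprotein, rose in SW females from 19.6 ± 5.96 to 48.7 ± 7.96 (1.30 ± 0.28, limma adjusted p = 0.00347) and was higher in females than in males by 2.22 ± 0.28 after standard weaning (limma adjusted p = 7.5e-06). The stress hormones Gdf15 and Fgf21 were near the limit of detection, with group means of 0.0187 to 0.0986 and 0.0269 to 0.0763 normalised reads.

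The unfolded protein and oxidative stress arms gave mixed counts. Of 14 endoplasmic reticulum chaperones and regulators none rose in any age comparison, and 3 fell in SW males, 0 in SW females, 1 in DW males and 2 in DW females. Without DW females 82 and 83 the DW female count was 0, and the SW male count ran from 1 to 4 over the 24 fits, with 1 gene called higher without p21 female 30, p21 male 37 or SW male 124. The DW female fits without animal 76 or 77 also had 1 gene called higher. Manf fell in males by 0.73 ± 0.14 after standard weaning (limma adjusted p = 0.00215) and by 0.81 ± 0.14 with the mother (limma adjusted p = 0.00101). Hspa5, the chief chaperone, fell in SW males by 0.54 ± 0.16 (limma adjusted p = 0.0362; lost in 5 of the 24 fits, without p21 males 37 or 38 or SW males 84, 85 or 124, adjusted p up to 0.119). The NRF2 list of 9 genes holds Nfe2l2, the gene of NRF2 itself, beside its targets. In each age comparison 1 of them was called higher, while 1 fell in SW males, 2 in SW females, 2 in DW males and 3 in DW females. Hmox1, the haem-degrading enzyme, rose in all 4 comparisons by 0.53 to 0.67. Txnrd1, thioredoxin reductase, fell in all 4 by 0.40 to 0.52.

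The remaining lists were counted in the same way. Of 13 enzymes of proline, aspartate, cysteine and alanine metabolism, 1 rose in SW males and 1 in DW males, and 1 fell in SW females and 2 in DW females. Prodh, which degrades proline, went in females from 55.8 ± 30.0 at p21 to 21.7 ± 4.34 after standard weaning (-1.22 ± 0.31, limma adjusted p = 0.0111; 0.0580 without p21 female 30). With the mother it was at 17.1 ± 8.08 in females (-1.64, limma adjusted p = 0.00172). That call was kept in all 24 fits that each left out 1 animal (adjusted p up to 0.0094). Of 10 mTORC1 and sestrin partners 1 rose and 3 fell in DW females and none was called in the other 3 age comparisons. Without DW females 82 and 83, or without 83 alone, no gene of that list was called in DW females. In DW minus SW none of the 100 list genes was called by limma or edgeR in either sex, and DESeq2 called 0 in males and 2 in females. At an unadjusted p under 0.05 limma had 7 list genes in males and 17 in females, against 6.94% and 18.9% of all genes.

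Several marker lists moved with age beside these genes. The macrophage score rose by 0.93 to 1.16 in the 4 comparisons, with no overlap of groups (exact permutation test, two-sided, p = 0.0286, the smallest that 4 against 4 can give; adjusted p = 0.114 over 72 tests). The adipocyte score was 0.42 higher than at p21 in SW males and 0.43 higher in DW males, the endothelial score 0.42 higher in DW males and the adipose progenitor score 0.54 higher in DW females, each with no overlap and the same p. In females the adipocyte score differed from p21 by 0.00 after standard weaning and -0.12 with the mother. The skeletal muscle score was 0.58 to 5.40 in p21 males against 5.19 to 9.43 in SW and 4.59 to 9.31 in DW males; in females it was 0.67 to 7.30, 5.32 to 8.37 and 0.55 to 7.59. The mammary score of females was 2.00 to 3.62 at p21, 4.46 to 4.95 in SW and 3.23 to 4.19 in DW animals, and Krt8 of that list was at 0 in at least 1 library. With the muscle, mammary and lymph node scores as covariates 2 of the 10 genes were called in SW males (Phgdh and Mthfd2), 1 in SW females (Phgdh), 2 in DW males (Atf4 and Mthfd2) and 3 in DW females (Asns, Ddit3 and Phgdh). The mammary score of SW females did not overlap that of p21 females, and male muscle scores overlapped little between the ages. In those comparisons the fit could hardly tell scores from group, so a call lost there decides nothing about tissue makeup.

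The proliferation score of 8 cell cycle genes was 4.17 to 4.46 in p21 males and 3.43 to 3.90 in SW males, a difference of -0.66, and it differed by -0.35 between SW and p21 females (exact permutation test, two-sided, p = 0.0286 and adjusted p = 0.114 for each). In DW males it was 4.29 to 4.36, a difference of 0.00 from p21, and in DW females 4.29 to 5.05, a difference of 0.33 (exact permutation p = 0.114). In SW males none of the 10 genes was called with the proliferation score as a covariate. Mthfd2 was then at -0.40 (limma adjusted p = 0.402) and Phgdh at -1.06 (limma adjusted p = 0.0818), against -1.06 and -0.99 without it. The score also holds Tyms, a gene of the one-carbon list. Since the score did not overlap between SW and p21 animals of either sex, the fit could hardly tell score from group there. A call lost in SW animals therefore decides nothing about the score. That fit called 2 genes in SW females (Asns and Phgdh), 7 in DW males and 2 in DW females (Mthfd2 and Phgdh). Beyond it, the part of the score in the results was not tested.

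Animals of a group also differed from each other, and genes that varied together within groups were sought by Pearson correlation of log2(value + 1) after each group's mean was removed, over the 24 libraries, among up to 9942 genes whose mean log2 level reached 3. Psat1 was most like Abhd5, an activator of lipolysis (r = 0.94), and Asns was most like Papss2 (r = 0.90) and Car3, an adipocyte carbonic anhydrase (r = 0.88). Ddit3 was most like Rbmxl1 (r = 0.89) and the ribosomal protein genes Rpl11 and Rpl35 (r = 0.88 each). Trib3 was most like Zfand2b (r = 0.90), Phgdh like Snrpb (r = 0.87), Mthfd2 like Crlf3 (r = 0.87) and Slc7a11 like Ly75 (r = 0.87). Chac1 was most like Sik2 (r = 0.87), Atf4 like Polr2h (r = 0.81) and Sesn2 like Tapbpl (r = 0.80). Ddit3, Trib3, Chac1 and Slc7a11 lay under that level, so they could not be returned as a match. None of the others was among the 3 genes most like another of the 10. Among the 10 the pairs most alike were Ddit3 and Trib3 (r = 0.74), Asns and Psat1 (r = 0.56) and Atf4 and Ddit3 (r = 0.53), and Asns and Mthfd2 ran opposite (r = -0.70). Each match named was weaker without the pair of libraries farthest from their group means for the gene. The r then ran from 0.72 (Atf4 with Polr2h) to 0.91 (Psat1 with Abhd5). Pairs among the 10, such as Asns and Mthfd2, were not recomputed in that way. These libraries share their tissue makeup and depth differences, so the correlations are descriptions of this set of animals.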

How the data were processed

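Poly(A) RNA of 24 fat pads was sequenced on a NovaSeqXPlus after KAPA mRNA HyperPrep library preparation, per the labels' protocols. The submitters' processing notes name fastp, HISAT2, featureCounts, DESeq2 1.38.3 and mm10, with no role or order. Scaling and strand setting are not given in the sources used here. The deposited values are a normalized signal made by the authors, that is, reads scaled per library: 100% of values were whole multiples of 1 read (tolerance 0.001), and their sums were 802296 to 1102810. The table's gene positions are of a build it does not state: 2.23% of 16095 gene starts equalled those of GENCODE M21 (GRCm38). No coordinate was taken from the table, and exon lengths came from GENCODE M21. Of 16208 rows 90 were repeats and were left out.

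Groups followed the age, sex and group labels; the titles of the p21 samples say p28, and 1 title gives another animal number than its other labels. The 36 pairs of animals within groups all differed by more than sampling noise. No animal number occurs in more than 1 group, so nothing is paired. The fit treats the 4 animals of a group as independent; litters are not given, and animals with neighbouring numbers were often more alike. limma 3.58.1 (R 4.3.3, variance trend) was fitted to log2(value + 1) of all 24 libraries, 1 coefficient for each of 6 groups, 18 residual degrees of freedom, after filterByExpr with a minimum count of 10. p-values were adjusted by Benjamini-Hochberg over 16005 genes and called under 0.05. The code was tested on simulated data. On the recovered reads edgeR 4.0.16 (quasi-likelihood, TMM) called 1801 genes in SW males against p21, 1472 in SW females, 2283 in DW males and 1666 in DW females; limma called 1901, 1860, 2395 and 1938. In DW minus SW edgeR called 29 genes in males and 71 in females, against 41 and 204 by limma. DESeq2 1.42.0 and the alternatives described at the end were also run. All 10 genes are described; list genes named are up to 3 per list and comparison, those with the largest change among called genes whose groups do not overlap and whose mean log2 value is at least 1, besides the eIF2 kinases, Atf3, Cebpb, Ppp1r15a, Gdf15, Fgf21 and Hspa5. Psph, Shmt2 and Krt8 were named after their values were seen. The 2 pathway-list genes that DESeq2 called in females between the weaning groups are not reported by name here. The 10 genes are picked by symbol; they and the lists were chosen with earlier results of these data known.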

Additional observations from a re-analysis of the deposited data

Results flagged for a closer look

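In 5 of 60 sets of 4 animals (10 genes in 6 groups) 1 animal stood far from the other 3 by Dixon's test, where chance gives about 1 in 20, or 3. p21 female 30 had Atf4 at 127 normalised reads against 67.4 to 69.5 in the other 3 p21 females, and Asns at 176 against 104 to 106. SW male 124 had Phgdh at 58.8 against 31.6 to 33.0 and Mthfd2 at 9.59 against 6.60 to 7.00. DW female 83 had Slc7a11 at 7.81 against 5.65 to 5.90.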

How the results depend on the processing

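Of the 10 genes, 4 were called in SW males against p21, 4 in SW females, 7 in DW males and 2 in DW females; edgeR called 4, 4, 6 and 2. With the tissue scores as covariates 2, 1, 2 and 3 were called in SW males, SW females, DW males and DW females. The mammary score of SW females did not overlap that of p21 females, and male muscle scores overlapped little between the ages. The male and SW female counts of that fit are therefore hard to read. With the proliferation score as a covariate 0, 2, 7 and 2 were called. That score did not overlap between SW and p21 animals of either sex, so the SW counts of that fit are hard to read. DESeq2 called 1 gene (Atf4) between the sexes in DW animals. Leaving out 1 animal at a time (24 fits) gave 3 to 5 called genes for SW males, from 2 to 4 for SW females, 2 to 7 for DW males, and for DW females 2 to 3. It gave 0 to 1 for DW minus SW in females and for the sexes in DW animals, and 0 to 0 for DW minus SW in males, for the sexes at p21 and in SW animals, and for all 3 interactions. The DW male count was 2 without DW male 87 and 3 without p21 male 53, DW male 80 or DW male 86. No change that was called turned its sign under any alternative run. The run of animal numbers as a covariate was not fitted for age comparisons, because runs do not cross ages. Adding 1 before the logarithm and shallow libraries limit what can be seen of Chac1, which had 1 to 274 reads.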
